A study of Mus musculus with 24 samples.

Results

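The nuclear genes for the respiratory chain and ATP synthase were followed across 8 sorted populations of mouse mammary epithelium. Members were chosen by symbol alone, as the genes whose names open with Nduf and a, b, c, s or v, with Uqcr, with Cox4 to Cox8 or with Atp5, and the 4 Sdh genes. Of 19937 genes read from probe sets with 1 gene symbol, 89 were members. They were 34 complex I subunits, 7 complex I assembly factors (Ndufaf1 to Ndufaf7), 4 complex II, 8 complex III and 19 complex IV genes, and 17 ATP synthase genes. Ndufa4, its paralogue Ndufa4l2 and Cox7a2l, a supercomplex factor, were counted with complex IV. All 89 members entered the test, because no filter on low values was used. Some genes of these name patterns, and the subunits encoded in mitochondrial DNA, are not analysed here.

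Complexes I to IV of the mitochondrial inner membrane pass electrons from NADH and succinate to oxygen. Complexes I, III and IV pump protons on the way, and ATP synthase makes ATP as the protons flow back. Complex I accepts electrons from NADH, complex II from succinate, complex III passes them to cytochrome c and complex IV to oxygen. Each complex except complex II joins subunits from the nuclear and the mitochondrial genome, and several complex IV subunits have paralogues restricted to muscle, lung or testis. In the mammary gland, the inner luminal layer holds progenitor and hormone-sensing cells and the outer basal layer holds contractile myoepithelial cells.

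Control mice carried Lgr5-creERT2, a tamoxifen-inducible Cre recombinase driven from the Lgr5 locus, and mutant mice carried Lgr5-creERT2 with a PIK3CA H1047R transgene, an activated form of the catalytic subunit of phosphoinositide 3-kinase. All mice were of mixed FVB/C57BL6 background and were taken 4 weeks after tamoxifen. Each array read RNA of 250 CD45-negative cells, amplified before hybridisation, from glands of 2 to 3 mice pooled per genotype after estrus synchronisation. There were 3 such pools, each sorted on its own. The 4 basal groups (CD24 low, Sca1 negative) were GFP-negative or GFP-positive cells of control or mutant mice, where GFP marks cells expressing Lgr5, the transgene or both. The labels call the GFP-negative basal cells free of Lgr5 expression and, in mutant mice, of the transgene. The 4 luminal groups (CD24 high) were Sca1-negative or Sca1-positive cells, taken as GFP-negative in control and as GFP-positive in mutant mice, so genotype and GFP state cannot be told apart there. Each group had 3 arrays, and the deposited values are log2 levels per probe set.

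The sorted layers carried their keratins. Krt5, a basal keratin, had group means of 11.53 to 11.92 in the basal groups and 5.21 and 5.32 in the control luminal groups, but 8.50 in mutant luminal Sca1-negative and 6.48 in mutant luminal Sca1-positive cells. Krt18, a luminal keratin, had means of 12.59 to 12.77 in the luminal and 9.63 to 11.09 in the basal groups. In basal GFP-positive cells Pik3ca stood at 8.07 ± 0.31 with the transgene and 6.98 ± 0.27 without (SD, n = 3), and Lgr5 at 6.30 ± 0.90 and 9.47 ± 0.46. The control value of Pik3ca there was the lowest of the 8 group means. In basal GFP-negative cells Pik3ca stood at 7.69 ± 0.22 (control) and 7.43 ± 0.49 (mutant). In the basal groups labelled GFP-negative Lgr5 stood at 8.07 ± 0.92 (control) and 7.34 ± 0.19 (mutant), which goes against their label, and the mutant value was above that of the mutant GFP-positive group. Signal was compressed in 2 of the 3 arrays of GFP-positive control basal cells. Over all genes the standard deviation of log2 values was 1.699 in replicate 1 and 1.677 in replicate 3, against 1.757 to 1.888 in the 21 arrays of the other groups, and replicate 2, at 1.766, lay within that range. The bright genes outside the member list, 605 in number, averaged 10.07 and 10.03 in replicates 1 and 3, 10.25 in replicate 2 and 10.24 to 10.52 in the other groups. The comparison of mutant with control GFP-positive basal cells is given with another reference as well. The same arrays enter the comparison of GFP fractions in control mice and the differences of mutant effects that involve basal GFP-positive cells. No other reference is given for these.

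The members were mostly bright. Their median level over the 24 arrays was 9.28, and a gene was called dim here below 4.61, the median of all values. Mean signals ran from 9.65 (Atp5pb, the peripheral stalk subunit b) to 11.93 (Atp5g2, which encodes the c subunit of the proton-turning ring) in ATP synthase. In complex I they ran from 6.27 (Ndufs1, the large iron-sulfur subunit) to 11.05 (Ndufa11, a membrane arm subunit). Complex II ran from 7.43 (Sdhd, a membrane anchor) to 8.51 (Sdhb, the iron-sulfur subunit). Complex III ran from 7.90 (Uqcrfs1, the Rieske iron-sulfur protein) to 11.50 (Uqcrh, the hinge protein), and the assembly factors from 4.53 (Ndufaf6) to 7.24 (Ndufaf2). Probe sets differ in their response, so these signals rank no transcripts.

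Most of the tissue-restricted complex IV paralogues lay at the dim end of the list, as did assembly factors such as Ndufaf6 (4.53). Cox7b2 (3.71) and Cox8c (4.39), known from testis, Cox8b (4.15), a heart and muscle form, Cox4i2 (4.31), a lung form, and Ndufa4l2 (4.36), a hypoxia-induced paralogue, all had mean levels under the dim limit. Cox6a2 (5.24), the heart and muscle form of Cox6a, was little above it. Their widely expressed partners Cox4i1, Cox6a1, Cox6b1, Cox7a2, Cox7b, Cox8a and Ndufa4 had group means between 9.60 and 12.23. None of these 6 paralogues was called in any of the 10 group comparisons. Cox7a1 and Cox6b2 behaved otherwise and are described further on.

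Read by group, the member list was lowest in control basal GFP-positive cells. Of 89 members, 57 (64%) had their lowest group mean there, against 11.3% of all genes. The same group held the highest group mean of 29% of all genes and of 4 members (4.49%). Members are brighter than most genes, and the compressed arrays belong to this group. Its mean was 4.06 over dim genes, the highest of the groups, and 10.12 over other bright genes, the lowest. The part of array signal in the count of 57 was not tested. Control luminal Sca1-positive cells held the highest group mean of 25 members (28.1%), against 11.8% of all genes. Each member was then set to its own mean over the 24 arrays and the median over members was taken per array. This centred median was -0.36 ± 0.12 (SD, n = 3) in control basal GFP-positive cells. In the other control groups it was 0.02 ± 0.02 (basal GFP-negative), -0.11 ± 0.13 (luminal Sca1-negative) and 0.18 ± 0.10 (luminal Sca1-positive). In mutant basal cells it was 0.11 ± 0.20 without and 0.02 ± 0.02 with GFP. In mutant luminal cells it was 0.10 ± 0.16 in the Sca1-negative and 0.11 ± 0.08 in the Sca1-positive fraction. In bulk RNA of sorted cells, fewer cells of a kind and less of a transcript per cell cannot be told apart.

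The part of the compressed signal in the values by complex was not tested, and the complexes differ in brightness. Differences between the complexes in that group were not tested either. Their centred medians in control basal GFP-positive cells were -0.53 ± 0.12 for ATP synthase, -0.43 ± 0.19 for complex I, -0.33 ± 0.12 for complex III and -0.32 ± 0.04 for complex IV. Complex II had -0.24 ± 0.09 and the assembly factors -0.15 ± 0.11. For ATP synthase the arrays of this group ran from -0.66 to -0.42, and the lowest array of any other group was at -0.23, so they did not overlap. For complex IV they ran from -0.35 to -0.27 and the next lowest array stood at -0.09. The complex I, II and III arrays and those of the assembly factors overlapped with arrays of other groups. The complex II medians, over 4 genes, scattered most, with arrays of control basal GFP-negative cells between -0.50 and 0.39.

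**Figure D1:**
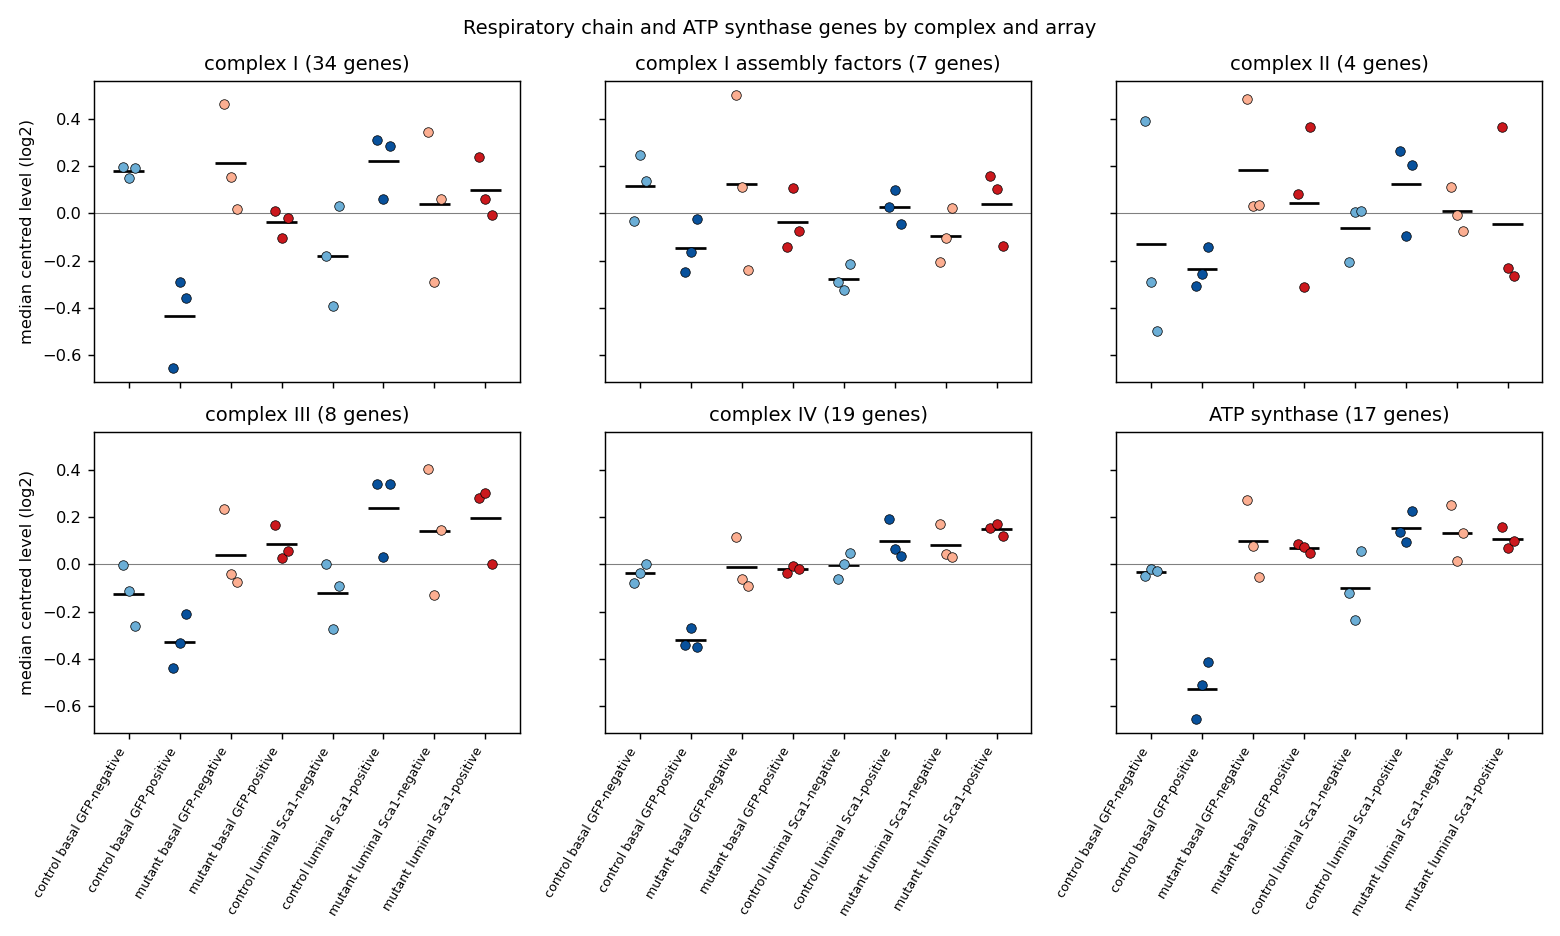
Median centred level of each complex in each array (log2, each gene relative to its own mean over 24 arrays); points are arrays, 3 per group, bars are group means, blue is control, red is mutant, and the darker shade is the GFP-positive or Sca1-positive fraction. ATP synthase lies between -0.66 and -0.42 in control basal GFP-positive cells and above these values in every other array.

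Members of a complex moved together to different degrees. The median Pearson correlation between members over the 24 arrays was 0.436 within ATP synthase (136 pairs), 0.364 within complex III (28 pairs) and 0.357 within complex I (561 pairs). It was 0.122 within complex II, 0.102 within the assembly factors and 0.0718 within complex IV, where pairs ran from -0.66 to 0.859. The complex IV set includes the tissue-restricted paralogues, most of them under the dim limit, so its value does not describe the widely expressed subunits alone. The part of the dim genes in it was not tested. Against the mean of all members, which includes the member itself, Cox6b1 (0.857), Cox7b (0.849) and Cox6a1 (0.846) ran closest, and Ndufa4l2 (-0.519) and Cox8c (-0.435) ran the other way. The 5 genes outside the list that ran closest to the member mean were Ubl5 (0.876), Mrpl11, a mitochondrial ribosomal protein (0.873), Vamp3 (0.862), Psmb5, a proteasome subunit (0.856), and Mtch2, a mitochondrial outer membrane protein (0.846). The arrays share the group structure and signal differences described above, so these coefficients are a description.

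**Figure D2:**
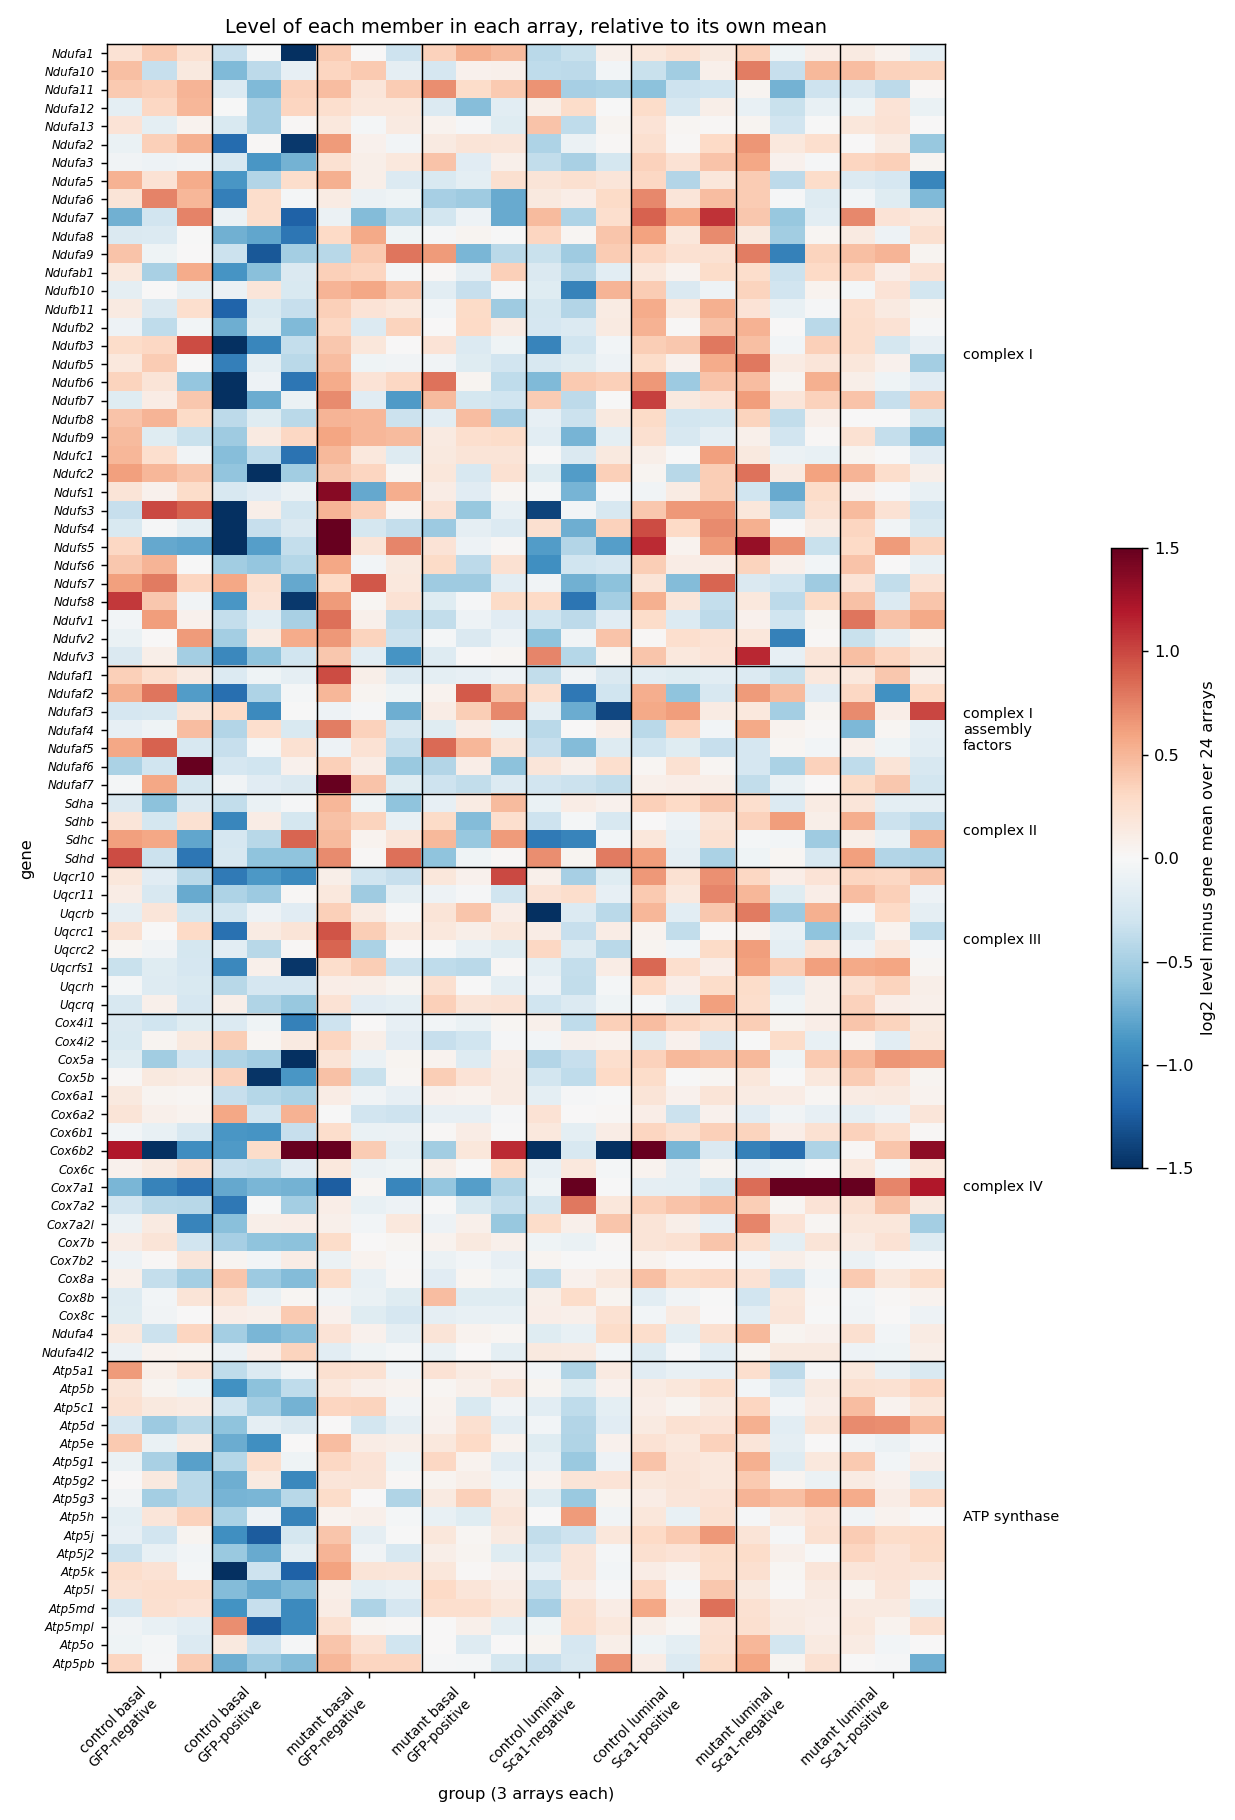
Level of each of the 89 members in each of the 24 arrays relative to the gene's own mean (log2, colour scale from -1.5 to 1.5, with 24 of 2136 values beyond it drawn at its ends); rows are genes by complex and columns are arrays in groups of 3. The control basal GFP-positive columns are the bluest, and Cox7a1 is red in the mutant luminal columns.

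The first comparison set the cells sorted as GFP-positive from the basal layer of mutant mice against those of control mice. Lgr5 was lower in the mutant cells, so both gates need not hold the same cells. In mutant cells 22 of 89 members were higher and 0 were lower (limma over 19937 genes, Benjamini-Hochberg adjusted p under 0.05, n = 3 per group). Over all genes 12.6% were called, 4.74% higher and 7.81% lower. The median log2 difference was 0.43 over members and -0.10 over all genes tested. In 33 members the 3 mutant arrays lay above the 3 control arrays (10.1% of all genes), and in 2, the dim Cox8c and Cox4i2, below them (25.2% of all genes). The 22 came from ATP synthase (8 of 17), complex I (7 of 34), complex IV (6 of 19) and complex III (1 of 8), with 0 of 4 in complex II and 0 of 7 assembly factors. The 19 complex IV genes include the tissue-restricted paralogues, most of them dim, and none of these was called. Its share therefore does not describe the widely expressed subunits alone.

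Atp5l encodes subunit g, in the membrane part of ATP synthase near the contact between its dimers. Its log2 levels were 11.71, 11.60 and 11.52 in mutant and 10.76, 10.66 and 10.76 in control arrays. The groups did not overlap, and the difference was 0.88 (SE 0.11, adjusted p = 0.000122). Cox6a1, the common form of complex IV subunit 6A, stood at 11.96, 11.95 and 12.02 against 11.55, 11.47 and 11.42, again without overlap (0.49, SE 0.07, adjusted p = 0.000239). Uqcr10, a small complex III subunit, stood at 11.05, 10.93 and 11.86 against 9.81, 10.01 and 9.92. The mutant arrays were all higher, replicate 3 most so (1.36, SE 0.21, adjusted p = 0.000653). Atp5b, the catalytic beta subunit, stood at 10.65, 10.70 and 10.81 against 9.71, 10.01 and 10.24, also apart (0.73, SE 0.11, adjusted p = 0.000667).

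The other ATP synthase members that rose were Atp5k (subunit e, 1.13), Atp5md (a small membrane subunit, 0.96), Atp5j (coupling factor 6 of the peripheral stalk, 0.92), Atp5g3 (subunit c, 0.81), and Atp5e and Atp5c1 of the central stalk (0.72 and 0.43). In complex IV, Cox5a (0.82), Cox6b1 (0.75), Ndufa4 (0.70), Cox7b (0.67) and Cox6c (0.42) rose beside Cox6a1, all nuclear-encoded subunits around the catalytic core. In complex I the 7 were accessory subunits: Ndufa1 (1.32), Ndufa2 (1.03), Ndufb3 (0.98), Ndufc1 (0.89), Ndufa8 (0.87), Ndufa3 (0.72) and Ndufb2 (0.67). Adjusted p over these 18 ran from 0.00267 (Cox6b1) to 0.0492 (Ndufb2).

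Most core subunits did not pass the test. The measured core subunits of complex I, which carry electrons inward from NADH, gave 0.74 (Ndufs8), 0.63 (Ndufs3), 0.15 (Ndufs1), 0.13 (Ndufv1), -0.17 (Ndufv2) and -0.43 (Ndufs7), with adjusted p of 0.214 to 0.790. The last was the lowest difference of all members. The highest, that of the accessory Ndufc2 (1.454, adjusted p = 0.0509), did not pass either. Nor did the accessory Ndufs5 (1.406, adjusted p = 0.0858) and Ndufb6 (1.165, adjusted p = 0.07). Core and accessory subunits were not compared in a test. In complex II, Sdha, the flavoprotein of succinate dehydrogenase, gave 0.32 (adjusted p = 0.308), Sdhb 0.34 (adjusted p = 0.440), and the anchors Sdhc and Sdhd 0.12 and 0.27. In complex III, the core proteins Uqcrc1 and Uqcrc2 gave 0.41 (adjusted p = 0.323) and 0.08 (adjusted p = 0.850) and Uqcrfs1 0.53 (adjusted p = 0.230). Atp5a1, the alpha subunit that alternates with beta, gave 0.35 (SE 0.17, adjusted p = 0.181). In ATP synthase, by contrast, the catalytic Atp5b, the central stalk subunits Atp5c1 and Atp5e and the ring subunit Atp5g3 were among the 22. The dim Cox8c (-0.31, adjusted p = 0.0507) and Cox4i2 (-0.40, adjusted p = 0.0689) were negative.

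Bright genes as a whole also ran higher in this comparison. Among the 605 other genes at or above the members' median level, 107 (17.7%) were higher and 20 were lower, with a median of 0.23. Among the 45 members at or above that level 19 (42.2%) were higher and 0 lower, with a median of 0.54. Marker lists of other cells moved with the comparison too. Of 7 luminal progenitor genes, Csn3, Wfdc18, Elf5 and Cd14 were higher, and the list mean was 7.45 to 7.70 in mutant and 4.62 to 5.59 in control arrays, with 1 and 2 genes under the dim limit. Of 7 luminal epithelial genes only Ehf was higher (list means 7.90 to 9.18 against 7.56 to 8.25). Of 5 fibroblast genes Dcn and Col1a2 were higher (5.80 to 6.03 against 4.98 to 5.16), with 2 of the 5 dim in both groups, and of 10 basal genes Lgr5 was lower (10.04 to 10.19 against 10.47 to 10.65). Cidec and Retn of 6 adipocyte genes, Csf1r of 6 leukocyte genes and Tnnc2 of 7 skeletal muscle genes were lower, in lists whose means stayed between 4.23 and 5.05 in both groups. The part of array signal and of these cell types in the member differences was not tested.

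These calls changed with the reference group. Against control basal GFP-negative cells, mutant basal GFP-positive cells had 0 members higher and 1 lower at the same threshold, with 9 members at an unadjusted p under 0.05. Over all genes 3.22% were called, 2.29% higher and 0.928% lower. The 1 lower member was Ndufa6, an accessory subunit of complex I, with 8.84, 8.80 and 8.58 in mutant GFP-positive and 9.54, 10.09 and 9.84 in control GFP-negative arrays (-1.08, SE 0.25, adjusted p = 0.0229). Those arrays did not overlap. Of the 22 members that had been higher, 15 were above and 7 below the GFP-negative control, by -0.54 to 0.55. Ndufb3 turned to -0.54 and Atp5c1 to -0.24, and Atp5l, Atp5k, Ndufa2, Ndufc1 and Cox6c to between -0.09 and -0.02. Over all 89 members 44 were positive and 45 negative. A fit of only the 6 arrays compared called 4 members rather than 22, quantile normalization 14, and a fit without mutant basal GFP-positive replicate 1 called 13.

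**Figure D3:**
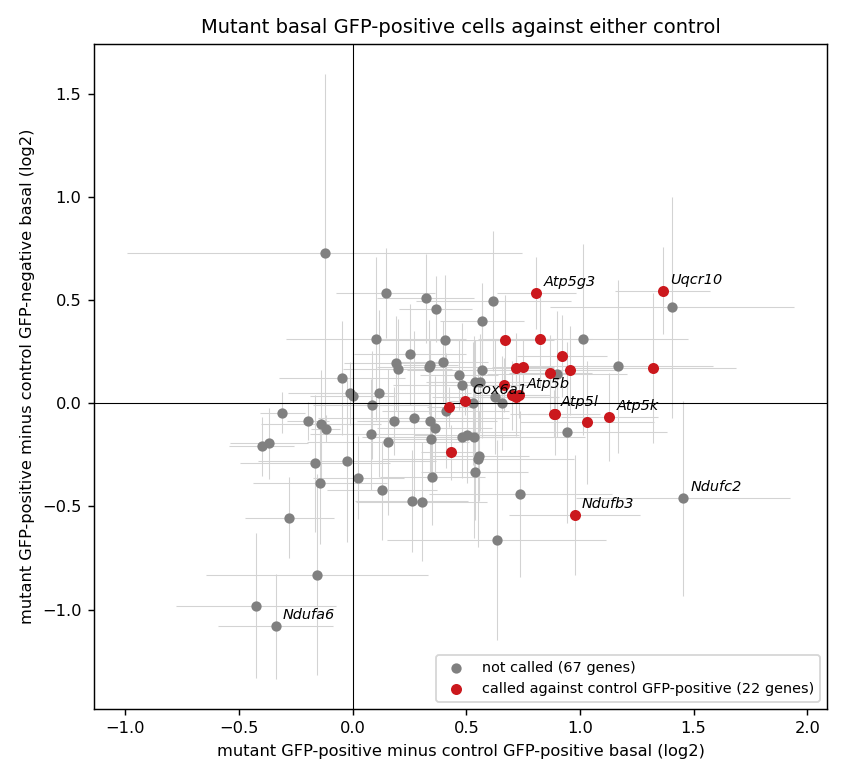
Log2 difference of each member between mutant basal GFP-positive cells and control basal GFP-positive cells (x axis) and control basal GFP-negative cells (y axis), with standard errors of the fit as grey lines; red points are the 22 members called on the x axis. The red points lie between 0.42 and 1.36 on the x axis and between -0.54 and 0.55 on the y axis; both axes share the mutant arrays.

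The comparison of GFP-positive with GFP-negative basal cells within control mice asked how Lgr5-marked cells differ from the other basal cells. Here 10 of 89 members were lower in GFP-positive cells and 0 were higher (limma, adjusted p under 0.05). Over all genes 1.25% were called, 0.507% higher and 0.747% lower. The member median was -0.48, against 0.05 over all genes. In 29 members the GFP-positive arrays lay below all GFP-negative arrays (5.75% of all genes) and in 1 above them (9.87%). The 10 were Atp5l, Atp5b, Atp5k and Atp5c1 of ATP synthase, Cox6a1, Cox6b1, Cox6c and Cox7b of complex IV, and Ndufb3 and Ndufc1 of complex I. This comparison and the one before it use the same control GFP-positive arrays, so their values are not independent.

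Atp5l stood at 11.65, 11.67 and 11.66 in control GFP-negative arrays, above all 3 GFP-positive arrays given above (-0.93, SE 0.11, adjusted p = 0.00202). Cox6a1 stood at 12.04, 11.93 and 11.92 there, also above (-0.48, SE 0.07, adjusted p = 0.00508). Atp5b stood at 10.81, 10.66 and 10.56, with no overlap (-0.69, SE 0.11, adjusted p = 0.00925). Atp5k, a membrane subunit that sits beside subunit g, stood at 10.95, 10.91 and 10.67 in GFP-negative and 9.08, 10.38 and 9.48 in GFP-positive arrays. The groups were apart although GFP-positive replicate 2 came near (-1.20, SE 0.21, adjusted p = 0.0135). Ndufb3 had the largest called difference of the 10 (-1.52, adjusted p = 0.0195) and Cox6c the smallest (-0.44, adjusted p = 0.0368).

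Among members at or above the median level, 9 of 45 (20%) were lower, with a median of -0.58, against 19 of 605 other bright genes (3.14%), with a median of -0.10. Of the marker lists, Krt19 of 7 luminal genes and Csn3 of 7 luminal progenitor genes were lower. The luminal list means were 7.56 to 8.25 in GFP-positive and 7.71 to 7.80 in GFP-negative arrays, with 0 genes dim in either. The progenitor list means were 4.62 to 5.59 and 5.13 to 6.66, with 2 genes dim in each. Of 10 basal genes 0 were called (10.47 to 10.65 and 10.39 to 10.78). The part of these markers and of the array signal in the member differences was not tested. Fitting the basal control groups alone left 0 members called, array weights 4 and quantile normalization 6. Leaving out GFP-negative replicate 1 or 2 gave 5 or 6, and leaving out GFP-positive replicate 2 gave 23.

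In mutant mice the same fractions gave no called member. Of 89, 0 were higher and 0 lower in GFP-positive cells (limma, 8 at an unadjusted p under 0.05, 2.51% of all genes called, 1.77% higher and 0.737% lower), and the member median was -0.11. The GFP-positive arrays lay above for 3 members (8.92% of all genes) and below for 8 (11.3%). The smallest p was that of Ndufaf7, an assembly factor (-0.89, SE 0.30, adjusted p = 0.158), and 1 member was called without GFP-negative replicate 3. The difference of the mutant effects between GFP-positive and GFP-negative basal cells was tested directly. It called 4 members, all higher (1.07% of all genes, 0.772% higher): Atp5l (1.18, adjusted p = 0.000675), Cox6a1 (0.58, adjusted p = 0.00466), Uqcr10 (1.41, adjusted p = 0.0250) and Atp5b (0.69, adjusted p = 0.0441). In GFP-negative cells the mutant effect on these was -0.30, -0.09, -0.05 and 0.04. The labels call such cells of mutant mice free of the transgene, so this effect compares the mice and not cells said to carry it. In that fraction 0 of 89 members were called (limma, 6 at an unadjusted p under 0.05, 0.0602% of all genes called, 0.0451% higher and 0.015% lower), with a member median of 0.09. The mutant arrays lay above the control arrays for 7 members (3.69% of all genes) and below for 4 (6.8%). Of 7 luminal epithelial genes 0 were called there, but the list means were 8.52 to 8.71 in mutant and 7.71 to 7.80 in control arrays, with 0 dim in either. Their part in the member values was not tested. Without control basal GFP-positive replicate 2 the difference of effects called 9 members, and without mutant basal GFP-negative replicate 2 or 3 it called 2. Leaving out dim genes gave 2 and fitting the basal groups alone 1.

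The promoters of the 4 members whose levels were given per array for mutant against control basal GFP-positive cells, those with the smallest p, are shown beside that of Cox7a1, which differed between the layers instead. Each is the 250 bases before the RefSeq transcription start in build GRCm38.p6, 5′ to 3′ on the gene's strand. Capitals mark matches to the binding motifs of NRF1 (GCGCA and GCGC with any 1 base between them) and GABPA (CCGGAAG, also as its reverse complement), factors known for nuclear mitochondrial genes. Atp5l lies at chr9:44920743-44920992 on the minus strand, Cox6a1 at chr5:115348959-115349208 (minus), Uqcr10 at chr11:4704345-4704594 (minus), Atp5b at chr10:128083057-128083306 (plus) and Cox7a1 at chr7:30183921-30184170 (plus).
Atp5l: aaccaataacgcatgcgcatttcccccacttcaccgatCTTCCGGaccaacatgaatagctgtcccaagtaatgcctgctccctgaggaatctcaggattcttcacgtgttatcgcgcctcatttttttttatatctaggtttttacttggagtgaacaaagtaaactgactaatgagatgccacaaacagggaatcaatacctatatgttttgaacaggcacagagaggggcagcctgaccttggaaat
Cox6a1: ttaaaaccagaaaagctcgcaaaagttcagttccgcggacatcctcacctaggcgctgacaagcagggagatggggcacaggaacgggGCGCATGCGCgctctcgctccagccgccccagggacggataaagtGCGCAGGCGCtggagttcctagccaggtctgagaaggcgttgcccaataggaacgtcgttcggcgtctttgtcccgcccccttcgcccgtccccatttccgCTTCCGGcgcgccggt
Uqcr10: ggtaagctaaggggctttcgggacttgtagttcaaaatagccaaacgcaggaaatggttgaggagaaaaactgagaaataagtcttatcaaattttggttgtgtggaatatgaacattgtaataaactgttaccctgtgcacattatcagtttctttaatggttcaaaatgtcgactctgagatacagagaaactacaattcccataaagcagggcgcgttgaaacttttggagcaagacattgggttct
Atp5b: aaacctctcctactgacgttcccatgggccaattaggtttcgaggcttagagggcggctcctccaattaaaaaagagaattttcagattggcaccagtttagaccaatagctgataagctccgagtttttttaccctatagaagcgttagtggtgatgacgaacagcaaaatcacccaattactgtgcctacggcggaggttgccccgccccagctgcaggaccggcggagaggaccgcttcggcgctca
Cox7a1: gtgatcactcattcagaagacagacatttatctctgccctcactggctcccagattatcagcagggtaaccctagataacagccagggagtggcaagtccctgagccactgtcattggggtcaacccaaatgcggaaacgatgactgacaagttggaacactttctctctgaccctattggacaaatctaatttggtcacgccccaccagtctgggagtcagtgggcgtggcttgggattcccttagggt
Cox6a1 held 2 NRF1 matches, 162 to 153 and 117 to 108 bases before the start, and a GABPA match 16 to 10 bases before it. Atp5l held a GABPA match 212 to 206 bases before the start, and both GABPA matches were to the reverse complement. Uqcr10, Atp5b and Cox7a1 held none of the motifs searched.

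Promoter windows of 300 bases (250 before to 50 after the start) were held for 73 of the 89 members. The NRF1 motif stood in 18 of them (24.7%), against 7.85% of 15613 tested genes with a promoter and 5.19% of all 27025 genes in the RefSeq table. The GABPA motif also stood in 18 (24.7%, against 13.6 and 9.93%), the YY1 motif AAGATGGC in 10 (13.7%, against 3.77 and 3.19%) and the ESRRA motif TCAAGGTCA in 2 (2.74%, against 0.346 and 0.466%). Both strands were searched. At least 1 of the 4 motifs stood in 12 of 15 ATP synthase promoters and 16 of 31 of complex I. Complex II had 3 of 3, complex III 3 of 5 and complex IV 3 of 13. The assembly factors had 3 of 6. The complex IV promoters include those of tissue-restricted paralogues, which held none. The share of all genes with at least 1 of the motifs was not taken, so counts of any motif have no background here. Of the 22 members that were higher in mutant basal GFP-positive cells, 20 had a promoter and 12 of these a motif, and 28 of the other 53 had one. A match is a run of letters in the window and says nothing of binding in these cells.

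In luminal cells 0 members were called between the genotypes in either fraction. Sca1-negative cells gave 0 higher and 0 lower (limma, 13 at an unadjusted p under 0.05, 0.727% of all genes called, 0.557% higher and 0.171% lower), with a member median of 0.21 against -0.04 over all genes. In 12 members the mutant arrays lay above the control arrays (7.64% of all genes) and in 3 below (10.5%). Atp5g3 came nearest (0.75, SE 0.17, adjusted p = 0.0555), then Ndufa3 (0.58, adjusted p = 0.158). Median centring, leaving out dim genes and array weights each called 1 member, as did leaving out control replicate 2, control replicate 3 or mutant replicate 2. Of 10 basal genes Krt5, Krt14 and Krt17 were higher in the mutant Sca1-negative cells (list means 6.26 to 6.83 against 5.16 to 5.30, with 0 and 1 genes dim), and their part in the member values was not tested. Sca1-positive cells gave 0 and 0 (limma, 7 at an unadjusted p under 0.05, 0.777% of all genes called, 0.401% higher and 0.376% lower), with a member median of -0.07. The mutant arrays lay above the control arrays for 7 members (8.15% of all genes) and below for 7 (7.51%). There Cox7a1 had the smallest p (1.38, SE 0.40, adjusted p = 0.179), followed by Ndufv1 (0.72, adjusted p = 0.298).

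The luminal and basal mutant effects were compared directly as well. The effect in luminal Sca1-negative cells was below that in basal GFP-positive cells for 3 members (1.03% of all genes called, 0.647% lower). They were Ndufa8, an accessory complex I subunit of the intermembrane space (-1.24, adjusted p = 0.0238), Atp5b (-0.74, adjusted p = 0.0274) and Atp5l (-0.70, adjusted p = 0.0437). These calls rest on few arrays. Leaving out control luminal Sca1-negative replicate 3, mutant basal GFP-positive replicate 2 or mutant luminal Sca1-negative replicate 2 left 0. Leaving out replicate 1 of control luminal Sca1-negative, mutant luminal Sca1-negative or mutant basal GFP-positive cells, or replicate 3 of the last, left 1. Between the mutant effects in the luminal fractions 0 members differed (limma, 8 at an unadjusted p under 0.05, 0.161% of all genes called).

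The comparison of Sca1-positive with Sca1-negative luminal cells sets a fraction higher in hormone-sensing genes against a fraction higher in progenitor genes. In control mice 1 member was higher and 0 lower (3.69% of all genes called, 2.08% higher and 1.61% lower), with a member median of 0.27 against -0.04 over all genes. In 29 members the Sca1-positive arrays lay above all Sca1-negative arrays (8.83% of all genes) and in 2 below them (13.8%). The called member was Ndufa3, a small membrane arm subunit of complex I, at 10.47, 10.33 and 10.55 in Sca1-positive and 9.75, 9.63 and 9.85 in Sca1-negative arrays. The groups lay apart (0.70, SE 0.17, adjusted p = 0.0248). Ndufaf3 (1.19, adjusted p = 0.0644), Uqcr10 (0.72, adjusted p = 0.0691) and Ndufb3 (0.96, adjusted p = 0.0798) were next and did not pass. Leaving out Sca1-negative replicate 2 or Sca1-positive replicate 1 or 3 left 0 calls, and leaving out Sca1-positive replicate 2 gave 2. In mutant mice 0 members were called (limma, 4 at an unadjusted p under 0.05, 3.66% of all genes called, 1.81% higher and 1.85% lower) and the median was -0.01. The Sca1-positive arrays lay above for 7 members (9.87% of all genes) and below for 2 (10.2%).

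Marker lists moved with the control fractions. Of 7 luminal progenitor genes 6 were lower in Sca1-positive cells, with list means of 6.52 to 6.85 against 9.89 to 10.37 and 1 and 0 genes dim. Of 4 measured hormone-sensing genes Prom1, Esr1 and Foxa1 were higher, with list means of 8.47 to 9.13 against 6.33 to 7.47 and none dim. In mutant mice the progenitor list means were 7.446 to 9.305 in Sca1-positive and 10.2 to 10.49 in Sca1-negative arrays, with 0 dim in either. The hormone-sensing list means were 7.46 to 8.63 and 5.08 to 6.37, with 0 and 1 genes dim. The part of these markers in the member values of either genotype was not tested.

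Between the layers, 4 of 89 members were called in control mice. Control luminal Sca1-negative cells had 1 member higher and 3 lower than control basal GFP-negative cells (9.83% of all genes called, 4.93% higher and 4.9% lower), with a member median of -0.14 and 14 members at an unadjusted p under 0.05. The luminal arrays lay above the basal arrays for 5 members (13.3% of all genes) and below for 15 (11.5%). Cox7a1, the heart and muscle form of complex IV subunit 7A, stood at 6.16, 7.94 and 6.21 in luminal and 5.53, 5.22 and 5.10 in basal arrays. All luminal arrays were higher and replicate 2 stood far above the others (1.49, SE 0.40, adjusted p = 0.0211). Ndufs6, a zinc-binding complex I subunit, stood at 8.28, 8.91 and 8.95 against 9.61, 9.71 and 9.20, without overlap (-0.79, SE 0.22, adjusted p = 0.0252).

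Ndufb3, a membrane arm subunit, stood at 5.54, 6.23 and 6.49 against 6.81, 6.84 and 7.51, also without overlap (-0.96, SE 0.29, adjusted p = 0.0419). Ndufaf5, an assembly factor, stood at 4.71, 4.41 and 4.87 against 5.64, 5.95 and 4.82, and the groups overlapped (-0.81, SE 0.23, adjusted p = 0.0343). Fitting these groups alone left 0 of the 4 calls. Without basal GFP-negative replicate 1 there was 1 call, without replicate 2 there were 0, and without luminal replicate 2 there were 2. Cox7a1 was 0.90 without luminal replicate 2 (adjusted p = 0.117).

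In mutant mice the luminal Sca1-negative cells had 1 member higher and 0 lower than the basal GFP-positive cells (7.86% of all genes called, 3.62% higher and 4.24% lower), with a member median of 0.11. In 12 members the luminal arrays lay above the basal arrays (15.7% of all genes) and in 5 below (11.2%). The called member was again Cox7a1, at 7.06, 7.83 and 8.09 in luminal and 5.63, 5.39 and 5.76 in basal arrays. The lowest luminal array was well above the highest basal array (2.06, SE 0.40, adjusted p = 0.00199). The call held in all 15 settings tried, with differences of 1.85 to 2.36 and adjusted p of 0.000631 to 0.0151. Against mutant basal GFP-negative cells, a reference chosen after seeing the data, Cox7a1 gave 2.17 (adjusted p = 0.00107) and Atp5g3 0.57 (adjusted p = 0.0432), with 10.1% of all genes called. Array weights called 4 members, fitting these groups alone 2, and a fit without the control basal GFP-positive arrays 3.

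Across the 8 groups Cox7a1 ran as follows. Its means were 7.66 ± 0.53 in mutant luminal Sca1-negative and 7.41 ± 0.46 in mutant luminal Sca1-positive cells, then 6.77 ± 1.01 and 6.03 ± 0.08 in the control luminal Sca1-negative and Sca1-positive groups (SD, n = 3). The basal groups followed at 5.60 ± 0.19 (mutant GFP-positive), 5.49 ± 0.04 (control GFP-positive), 5.49 ± 0.66 (mutant GFP-negative) and 5.28 ± 0.22 (control GFP-negative). The arrays of neighbours in this order overlapped at all but 2 steps. The control luminal Sca1-positive arrays (5.94 to 6.09) lay below the control Sca1-negative arrays (6.16 to 7.94) and above the mutant basal GFP-positive arrays (5.39 to 5.76). Cox7a2, the widely expressed partner, stood at 10.37 ± 0.53 and 10.56 ± 0.07 in control luminal and 10.33 ± 0.17 and 10.40 ± 0.15 in mutant luminal cells, and at 9.60 to 10.10 in the basal groups.

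Cox7a1 is known from muscle and brown fat, so their markers were read in the same arrays. Of 7 skeletal muscle genes 0 were called in either layer comparison, with list means of 4.77 to 4.89 in mutant luminal Sca1-negative and 4.68 to 4.74 in mutant basal GFP-positive arrays, which did not overlap. Mb, the myoglobin gene on that list, had its highest group means in mutant luminal cells, 5.48 (Sca1-negative) and 5.94 (Sca1-positive), against 4.57 to 5.11 in the other groups. The part of muscle RNA in the Cox7a1 values was not tested. Of 5 brown adipocyte genes Cidea was higher in both, and all 5, Ucp1 included, had group means under the dim limit in all 8 groups. Of 6 adipocyte genes 0 were called in either. Basal markers went the other way: of 10, 9 were lower in mutant luminal cells, with list means of 6.26 to 6.83 against 10.04 to 10.19.

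Cox6b2, a testis paralogue of Cox6b1, scattered widely within groups. It ran from 4.81 to 9.23 over the arrays, with standard deviations within groups of 0.36 (mutant luminal Sca1-negative) to 1.49 (control and mutant basal GFP-negative). Its means were 6.92 and 7.16 in Sca1-positive and 5.38 and 5.70 in Sca1-negative luminal cells of control and mutant mice. Neither difference passed the test (1.54, SE 0.87, adjusted p = 0.435, and 1.46, SE 0.87, adjusted p = 0.587). Cox6b1 itself, which helps hold the complex IV dimer, had group means of 11.22 to 12.23 with standard deviations of 0.06 to 0.31.

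**Figure D4:**
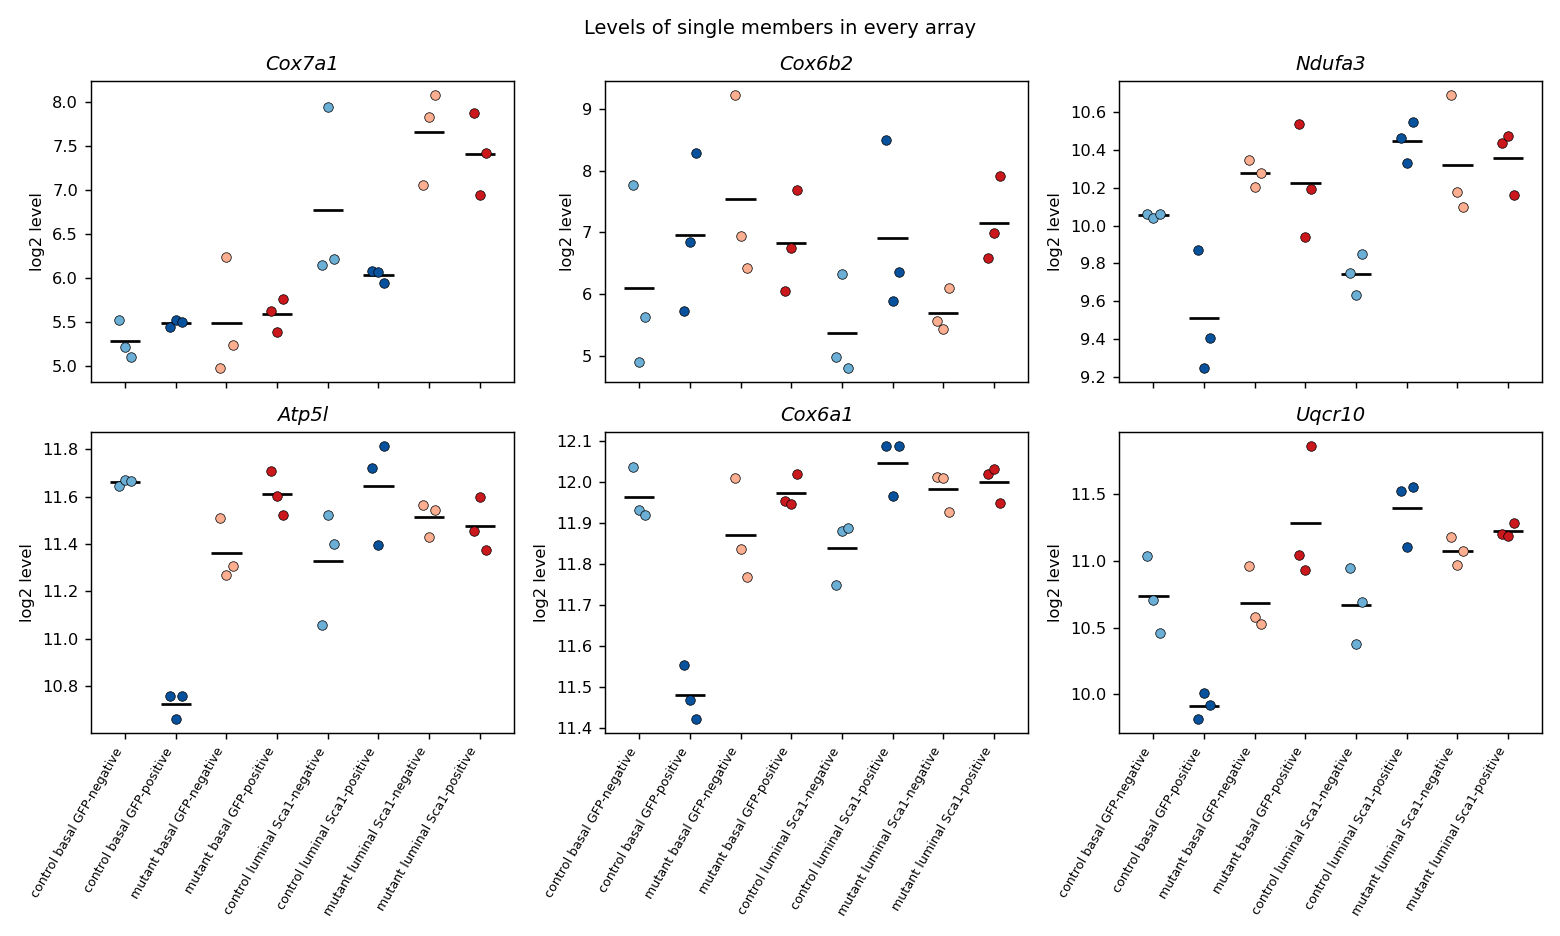
Log2 levels of 6 members in every array, with points as arrays (3 per group), bars as group means and colours as in the plot of the complexes; each panel has its own scale, which does not start at 0. Cox7a1 is at 6.94 to 8.09 in the 6 mutant luminal arrays and at 4.98 to 6.24 in the 12 basal arrays, while Atp5l, Cox6a1 and Uqcr10 are lowest in control basal GFP-positive cells.

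Genes that feed and serve the chain were read from separate lists, beside 12.6% of all genes called in the first comparison. In mutant against control basal GFP-positive cells, 2 of 19 electron carrier and quinone genes were higher: Gpd2, the mitochondrial glycerol phosphate dehydrogenase (2.19), and Cycs, cytochrome c (1.63). Coq2 of quinone synthesis was lower (-0.61), and the list median was 0.32. Of 21 tricarboxylic acid cycle and pyruvate dehydrogenase genes only Ogdh was higher (0.66, list median 0.21). Of 11 antioxidant genes Cat (2.31), Prdx3 (1.48) and Gpx1 (0.68) were higher, and of 13 glycolysis genes Pgk1 (1.28), Pfkp (1.27) and Pkm (0.68) were, with a list median of 0.61.

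Of 37 assembly factors outside the member list Acad9, a complex I assembly factor, was higher (2.06) and Cox15, which makes the haem A of complex IV, was lower (-1.16). Of 77 mitochondrial ribosomal proteins 3 were higher and 1 lower, with Mrps12 (1.72), Mrpl11 (0.86) and Mrps23 (-1.90) among them. Vdac3, an outer membrane pore, was higher (1.46) among 11 carrier and pore genes. Of 19 regulators of mitochondrial biogenesis 0 were higher and only Polrmt, the mitochondrial RNA polymerase, was lower (-0.49). Ppargc1a, their coactivator, had group means under the dim limit in all 8 groups.

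Between the control layers, where 9.83% of all genes were called, these lists gave the following. In control luminal Sca1-negative against basal GFP-negative cells 4 of 21 cycle genes were lower, Idh3a (-1.25), Idh3g (-0.73) and Sucla2 (-1.26) with the smallest p, and the list median was -0.50. Of 77 mitochondrial ribosomal proteins 6 were lower and 0 higher, led by Mrpl42 (-2.73). Slc25a4, an ADP/ATP carrier, was the 1 lower of 11 carrier and pore genes (-1.31). Of 11 antioxidant genes 2 were higher, of 13 glycolysis genes 1, of 37 assembly factors 1, and of 19 regulators 1 was higher and 1 lower. Of 19 electron carrier genes 0 were called. In luminal Sca1-negative cells of mutant against control mice, where no member was called, Ckmt1, the mitochondrial creatine kinase, was higher (2.11, SE 0.37, adjusted p = 0.00780). The glycolytic Ldha (1.30, adjusted p = 0.0220) and Aldoa (0.76, adjusted p = 0.0304) were higher there too. In Sca1-positive cells, where 0.777% of all genes were called, Ldhb was higher in mutant mice (1.96, adjusted p = 0.0239). The luminal progenitor list means there were 7.446 to 9.305 in mutant and 6.52 to 6.85 in control arrays, with 0 and 1 genes dim. The hormone-sensing list means were 7.46 to 8.63 and 8.47 to 9.13, with 0 dim in either. The part of these cell types in the Ldhb difference was not tested.

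Several members are read by more than 1 probe set or have copies elsewhere in the genome. The 17 members with several probe sets had 41 in all. For mutant against control basal GFP-positive cells 35 of these were positive and 6 negative, and signs disagreed within Atp5g2, Atp5h, Atp5l and Uqcrb. For Atp5l, 4 probe sets gave 0.88, 1.06, 1.24 and 0.65 and the dimmest gave -1.64 (SE 0.76). RefSeq names pseudogenes for 9 members, among them Atp5l (2), Atp5k (4), Uqcrh (2), Atp5c1 and Ndufs5, and the probe sets may read them too.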

How the data were processed

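RNA of 24 samples was read on arrays. The deposited values are log2 levels per probe set. The submitters' processing notes name affy, and background correction, normalization and summarization are not given in the sources used here. Of 34760 probe sets, 21640 with 1 gene symbol were kept, and for 954 genes with several only the brightest on average was used. All 8 groups were fitted in limma 3.58.1 (R 4.3.3), with 16 residual degrees of freedom, no filter and Benjamini-Hochberg adjustment over 19937 genes at 0.05. The test was checked on simulated data in which a gene had the same spread in every array and no array was compressed. That check does not cover arrays of unequal noise or compressed signal. Replicates are pools of mice, and fractions of a genotype may come from the same pools. The p-values rest on the spread of arrays within groups, estimated over all 8 groups together. Array weights, lower for noisier arrays, were 0.418 to 0.699 in control and 1.25 to 1.71 in mutant basal GFP-positive cells. The shared spread need not hold for each group compared, and 3 arrays per group limit the precision. Glands were sorted in 3 independent sortings, and the labels do not say which array came from which, so no sorting effect was fitted. Members and lists were chosen with earlier results of these data known. Values per array are given for at most 4 called members per comparison, by smallest p, and at most 3 called genes per other list are named. Alternatives were quantile normalization, median centring, leaving out dim genes, array weights, fits of only the compared groups, other reference groups, the replicate number as a block and leaving out each array.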

Additional observations from a re-analysis of the deposited data

Results flagged for a closer look

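The mutant effect differed between basal GFP-positive and GFP-negative cells, in a limma test of the difference itself, for Atp5l (1.18, SE 0.16, adjusted p = 0.000675), Cox6a1 (0.58, SE 0.10, adjusted p = 0.00466), Uqcr10 (1.41, SE 0.30, adjusted p = 0.025) and Atp5b (0.69, SE 0.16, adjusted p = 0.0441). The mutant effect in luminal Sca1-negative cells was below that in basal GFP-positive cells for Ndufa8 (-1.24, SE 0.26, adjusted p = 0.0238), Atp5b (-0.74, adjusted p = 0.0274) and Atp5l (-0.70, adjusted p = 0.0437). All 7 differences use the control basal GFP-positive arrays, of which 2 of 3 had compressed signal, and its part in them was not tested. The labels call mutant basal GFP-negative cells free of the transgene, so the mutant effect in that fraction compares the mice and not cells said to carry it.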

How the results depend on the processing

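Of 198 settings of the counts, 149 stayed within 1.5 times the reported count, 30 fell below and 19 rose above. Comparisons with 0 reported calls are among these settings, and a 0 that stayed 0 counts among the 149. The 149 therefore do not describe how steady the counts above 0 were. Where counts moved, the cause was not tested. Quantile normalization gave 14 members rather than 22 for mutant against control basal GFP-positive cells, 6 rather than 10 for GFP in control basal cells, and 1 rather than 3 for the luminal against basal mutant effects. Fits of only the compared groups gave 4, 0 and 0 for these, 1 for the basal difference of effects (4 reported), 2 for Sca1 in control cells (1 reported), and 0 and 2 for the control and mutant layer comparisons (4 and 1 reported). With control basal GFP-negative cells as the reference the 22 became 1, and Atp5c1 (-0.24), Atp5k (-0.0664), Atp5l (-0.0503), Cox6c (-0.0179), Ndufa2 (-0.0931), Ndufb3 (-0.54) and Ndufc1 (-0.0523) turned negative. Leaving out dim genes gave 2 for the basal and 1 for the luminal against basal difference of effects, 2 for Sca1 in control cells and 1 for mutant luminal Sca1-negative cells (0 reported). Median centring gave 2 and 1 for the last pair. Array weights gave 4 for GFP in control basal cells, 2 for Sca1 in control cells, 1 for mutant luminal Sca1-negative cells and 4 for the mutant layers. Without the control basal GFP-positive arrays, Sca1 in control cells gave 4 and the mutant layers 3, and with mutant basal GFP-negative cells as the reference, chosen after seeing the data, the mutant layers gave 2. Leaving out 1 array gave 13 to 28 for the 22, 5 to 23 for GFP in control and 0 to 1 in mutant basal cells, 0 to 1 in mutant luminal Sca1-negative cells, 0 to 2 for Sca1 in control cells, 0 to 4 and 1 to 1 for the layers, 2 to 9 for the basal and 0 to 4 for the luminal against basal difference of effects. The labels do not tie replicate numbers to a pool or sorting. Deviations of same-numbered arrays had a median r of 0.027 over 84 pairs (-0.0823 to 0.185, 6 over 0.1), so the numbers were not used as pairs, although replicate 1 had the highest centred member median in all 4 mutant groups (0.33, 0.04, 0.26 and 0.19). With the replicate block the counts were 24, 12 for GFP in control cells, 1 for Sca1, 5 and 1 for the layers, 4 and 2 for the differences of effects and 0 elsewhere. Of 656 settings of single genes, 440 kept their call, 209 lost it and 7 reversed.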

Other observations

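In control Sca1-positive against Sca1-negative luminal cells, where 3.69% of all genes were called, 1 of 13 glycolysis genes was higher and 2 were lower, among them Ldhb, a lactate dehydrogenase subunit (-2.86, limma adjusted p = 0.000346). Of 19 regulators of mitochondrial biogenesis 1 was higher, Twnk, the mitochondrial DNA helicase (1.59, adjusted p = 0.00839). In mutant mice, with 3.66% of all genes called, 3 of 13 glycolysis genes were lower, Ldhb (-2.33, adjusted p = 0.00226) and Ldha (-1.05, adjusted p = 0.0312) among them, and Twnk was again the 1 higher regulator (1.77, adjusted p = 0.00356). In control basal GFP-positive against GFP-negative cells, with 1.25% of all genes called, 2 of 77 mitochondrial ribosomal proteins, Mrps18a (-2.12) and Mrpl32 (-1.91), were lower and 0 were higher, with a list median of -0.42.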
